A study of Mus musculus with 2 samples.

Results

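The genes described here are secreted modulators of Wnt signaling, the ligand *Wnt5a*, a pair of Wnt receptors and a Wnt target gene in cultured vascular smooth muscle cells (VSMCs). The 10 genes are *Sfrp1*, *Sfrp2*, *Frzb*, *Wif1*, *Dkk2*, *Dkk3*, *Wnt5a*, *Fzd1*, *Fzd2* and *Axin2*, found by symbol among the 31053 genes of the count tables. They were chosen with their levels and their shares of positive cells in the groups below already known, so that differences between these groups and joint detection of the genes are given as a description without a test. Primary aortic VSMCs of wild type mice were kept for 5 days in full medium, and scRNA-seq libraries were made from 2 biological replicates. There was 1 condition, no allele was modified and no agent was given. Per the study's methods, each preparation pooled cells of several thoracic aortae, so that a library is 1 culture and not 1 animal.

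Wnt ligands are secreted lipid-modified proteins that bind Frizzled receptors at the cell surface. Canonical signaling stabilizes β-catenin and turns on targets such as *Axin2*, whereas *Wnt5a* is best known for noncanonical signaling. SFRP proteins, FRZB (also called sFRP3) and WIF1 bind Wnt ligands outside the cell, and Dickkopf proteins such as DKK2 bind the co-receptors LRP5 and LRP6, while DKK3 is a divergent member of the Dickkopf family. In the vessel wall, Wnt signaling has been linked to smooth muscle growth and phenotype.

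On GRCm38, the ligand gene *Wnt5a* lies on chromosome 14 from 28504750 to 28527448 (plus strand). The Frizzled-related genes lie apart from each other, *Sfrp1* on chromosome 8 (23411502 to 23449632, plus), *Sfrp2* on chromosome 3 (83766321 to 83774316, plus) and *Frzb* on chromosome 2 (80411970 to 80447625, minus). *Wif1* lies on chromosome 10 (121033960 to 121100650, plus), *Dkk2* on chromosome 3 (132085292 to 132180304, plus) and *Dkk3* on chromosome 7 (112116017 to 112159057, minus). The receptor genes lie on chromosome 5 (*Fzd1*, 4753839 to 4758035, minus) and chromosome 11 (*Fzd2*, 102604396 to 102608058, plus), the latter also holding *Axin2* (108920349 to 108950783, plus).

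In droplet-based scRNA-seq each mRNA molecule is tagged with a barcode of its cell and a unique molecular identifier (UMI), and levels are UMIs of a gene per 1000000 UMIs (CPM) of the summed cells of a library. After the quality filters, 4866 cells of replicate 1 (median 22234.5 UMIs) and 6824 cells of replicate 2 (median 16310 UMIs) were kept, and 9 cell barcodes occurred in both libraries. All 7 smooth muscle markers were found in both libraries, at a sum of 8406 and 7043 CPM. The cells were grouped by UMIs per cell. *Myh11*, the smooth muscle myosin heavy chain, was at 5 or more UMIs in 477 and 882 cells of replicates 1 and 2 and at 0 or 1 UMI in 4051 and 5500 cells. At least 1 UMI of *Il1rn* (the interleukin-1 receptor antagonist) was found in 1034 and 319 cells, at least 1 UMI of *Fgf18* (a fibroblast growth factor) in 2144 and 1266 cells, and at least 2 UMIs of *Sox9* (a transcription factor of chondrocytes) in 800 and 1865 cells. These groups overlapped: of the *Il1rn* cells, 89.0% and 94.0% were also *Myh11* ≤1 cells. The depth differed between groups, with a median of 25731 and 21023 UMIs in *Myh11* ≥5 cells and of 21847 and 15493 in *Myh11* ≤1 cells. Shares of cells with a UMI are therefore also given for a common depth of 3000 UMIs per cell. Free RNA made up an estimated 5.92% and 6.39% of the UMIs of a cell, which may be too high (see *Sfrp2* in endothelial cells below). By this estimate, free RNA alone would give 6.02% and 0.841% of all cells an *Il1rn* UMI, where 21.25% and 4.675% had one. For *Fgf18* it would give 4.54% and 1.595%, where 44.06% and 18.55% had one. The part of free RNA in these groups was not tested. Intervals are exact 95% binomial or Poisson intervals and cover counting error only.

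Compared with *Myh11* ≥5 cells, *Myh11* ≤1 cells had higher CPM of 8 members in both libraries and lower CPM of 1, *Wif1*, while *Sfrp2* went in opposite directions. Of all 14899 genes with at least 10 UMIs, 48.8% were higher in *Myh11* ≤1 cells in both libraries and 27.3% were lower. The median log2 ratio was 0.84 for the members and 0.11 for all genes. The levels of each member in each group are shown in the plot by gate.

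**Figure D1:**
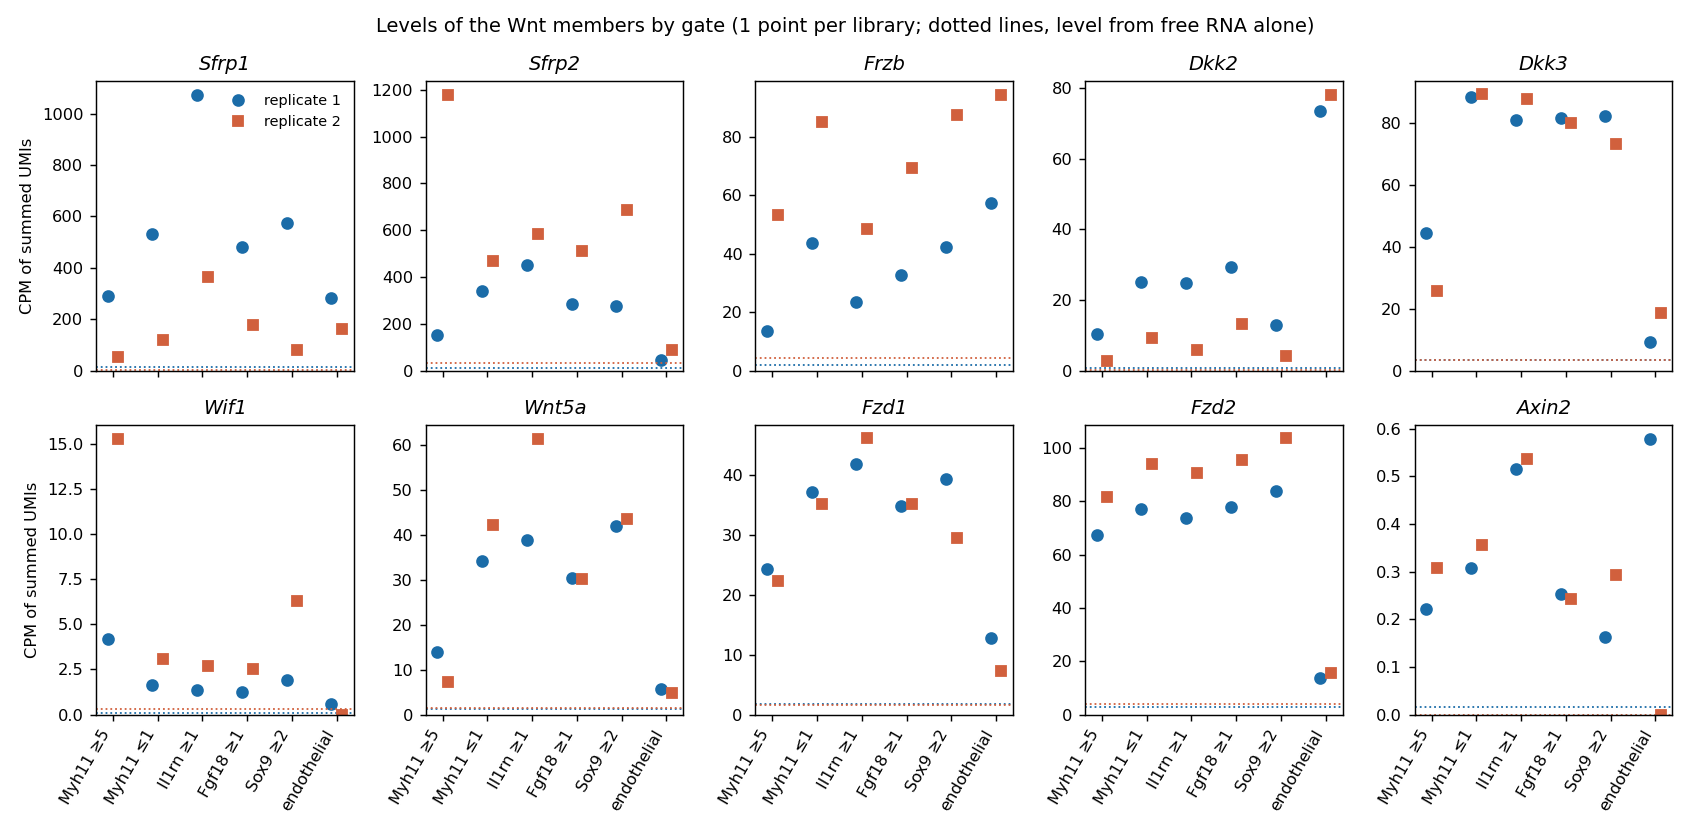
Level of each member (CPM of summed UMIs, linear axes from 0) in *Myh11* ≥5, *Myh11* ≤1, *Il1rn* ≥1, *Fgf18* ≥1, *Sox9* ≥2 and endothelial cells, with 1 point per library and the level that free RNA alone would give as dotted lines. *Wif1* was higher in *Myh11* ≥5 than in *Myh11* ≤1 cells in both libraries, *Sfrp2* only in replicate 2, and *Dkk2* stood at 73.5 and 78.2 CPM in endothelial cells.

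*Wnt5a*, the ligand, had 14.0 and 7.32 CPM in the *Myh11* ≥5 cells of replicates 1 and 2, and 34.0 and 42.1 CPM in their *Myh11* ≤1 cells. Both *Myh11* ≤1 values lay above both *Myh11* ≥5 values, by 2.43-fold in replicate 1 and 5.76-fold in replicate 2. At 3000 UMIs per cell, 3.64% and 1.62% of *Myh11* ≥5 cells and 8.54% and 10.7% of *Myh11* ≤1 cells were expected to have a *Wnt5a* UMI. In cells with 2 to 4 *Myh11* UMIs (338 and 442 cells), *Wnt5a* was at 28.1 and 11.4 CPM, between the values of the other groups in both libraries. *Wnt5a* was also higher in *Il1rn* cells, at 38.8 and 61.3 CPM, and lower in *Fgf18* cells, at 30.4 and 30.2 CPM.

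*Sfrp1* encodes a secreted Frizzled-related protein that binds Wnt ligands. It was found at 291 and 51.7 CPM in *Myh11* ≥5 cells and at 532 and 120 CPM in *Myh11* ≤1 cells. Each library thus had a higher level in *Myh11* ≤1 cells (1.82-fold and 2.32-fold), but the groups overlapped across libraries, since over all cells *Sfrp1* was 4.8-fold higher in replicate 1. *Il1rn* cells had the highest *Sfrp1* level of the 5 groups in each library, 1074 and 365 CPM, which was 2.02-fold and 3.05-fold that of *Myh11* ≤1 cells. *Sfrp1* was detected in 89.3% (87.2 to 91.1%) and 69.6% (64.2 to 74.6%) of *Il1rn* cells. At 3000 UMIs per cell the shares were 70.3% and 43.1% in *Il1rn* cells and 44.3% and 18.5% in *Myh11* ≤1 cells.

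The *Il1rn* group also differed in macrophage markers. The 5 markers summed to 100.5 and 122.7 CPM in *Il1rn* cells and to 43.2 and 27.2 CPM in *Myh11* ≤1 cells, and no marker was at 0 in any of these sums. Most of each sum came from 1 marker. The highest marker alone had 83.8 and 107.5 CPM in *Il1rn* cells and 33.7 and 19.7 CPM in *Myh11* ≤1 cells. The part of these markers in the *Sfrp1* difference was not tested. In *Myh11* ≤1 cells positive for *Il1rn* and negative for both *Fgf18* and *Sox9* at these thresholds, *Sfrp1* reached 1325 and 381 CPM. It had 358 and 101.4 CPM in *Myh11* ≤1 cells outside all 3 groups.

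*Sfrp2*, a close relative of *Sfrp1*, had 154 and 1179 CPM in *Myh11* ≥5 cells and 339 and 469 CPM in *Myh11* ≤1 cells. The highest and the lowest of these 4 values were both in *Myh11* ≥5 cells: the ratio of *Myh11* ≤1 over *Myh11* ≥5 cells was 2.20 in replicate 1 and 0.398 in replicate 2. The direction thus differed between the libraries, and at 3000 UMIs per cell the expected shares kept it, with 21.5% and 64.3% in *Myh11* ≥5 cells and 38.6% and 42.0% in *Myh11* ≤1 cells. Cells with 2 to 4 *Myh11* UMIs had 294 and 1332 CPM, and in replicate 2 this was above both other groups. The *Sfrp2* gene shares 464 bases at its 3′ end with the antisense gene *Gm26771*. *Gm26771* was at 3.74 and 4.38 CPM. The use of strand in counting was not given in the sources used here, and whether reads of the shared bases were told apart was not tested.

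The libraries differed in how *Sfrp1* and *Sfrp2* were spread over the cells. At a threshold of 10 UMIs, chosen after the values were seen, *Sfrp2* alone passed in 9.64% (7.15 to 12.7%) of the *Myh11* ≥5 cells of replicate 1 and in 52.3% (48.9 to 55.6%) of those of replicate 2. *Sfrp1* alone passed in 17.0% (13.7 to 20.7%) and 0.907% (0.392 to 1.78%). In *Il1rn* cells both genes passed together in 25.2% (22.5 to 27.9%) and 7.52% (4.88 to 11.0%), more than in *Myh11* ≤1 cells with 11.0% (10.1 to 12%) and 2.27% (1.90 to 2.70%). Neither gene passed in 54.4% and 74.4% of *Myh11* ≤1 cells.

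**Figure D2:**
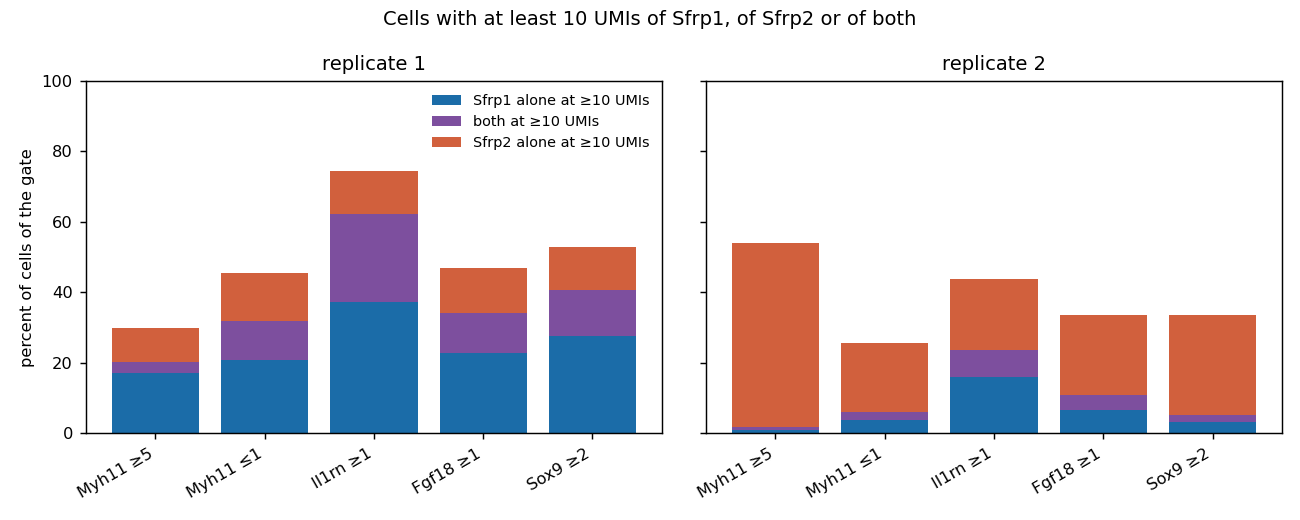
Percent of the cells of each group with at least 10 UMIs of *Sfrp1* alone, of both genes or of *Sfrp2* alone, as stacked bars for replicate 1 and replicate 2. *Sfrp2* alone took 52.3% of the *Myh11* ≥5 cells of replicate 2 and 9.64% of those of replicate 1.

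*Frzb*, a Frizzled-related Wnt binder first known from cartilage, had 13.6 and 53.1 CPM in *Myh11* ≥5 cells and 43.7 and 85.1 CPM in *Myh11* ≤1 cells. Within each library the *Myh11* ≤1 value was higher (3.22-fold and 1.60-fold), and across libraries the groups overlapped. *Frzb* was low in *Il1rn* cells, at 23.3 and 48.5 CPM, or 0.533 and 0.569 of the *Myh11* ≤1 level. *Sfrp1* and *Frzb*, both secreted Wnt binders, thus lay on opposite sides of the *Myh11* ≤1 level in *Il1rn* cells of both libraries. In *Sox9* cells, *Frzb* had 42.3 and 87.3 CPM, 0.968 and 1.03 times the *Myh11* ≤1 level.

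*Wif1*, the Wnt inhibitory factor, was the only member higher in *Myh11* ≥5 cells of both libraries. Its levels were 4.20 and 15.3 CPM there and 1.64 and 3.08 CPM in *Myh11* ≤1 cells, a difference of 2.56-fold and 4.97-fold without overlap of the groups. A *Wif1* UMI was present in 9.85% (7.33 to 12.9%) and 22.9% (20.2 to 25.8%) of *Myh11* ≥5 cells and in 3.28% (2.76 to 3.88%) and 4.4% (3.87 to 4.98%) of *Myh11* ≤1 cells. Free RNA alone would give 0.306% and 0.740% of *Myh11* ≥5 cells a UMI. Counts were small, with 57 and 299 UMIs in *Myh11* ≥5 cells and at most 3 and 10 UMIs in any of them. *Wif1* was also higher in *Sox9* cells than in *Myh11* ≤1 cells, at 1.92 and 6.28 CPM, or 1.17-fold and 2.04-fold. Of the *Sox9* cells, however, 5.25% and 9.81% were *Myh11* ≥5 cells. In *Myh11* ≤1 cells of the *Sox9* group alone, *Wif1* had 2.84 and 4.24 CPM. Those outside the *Il1rn*, *Fgf18* and *Sox9* groups had 1.90 and 3.23 CPM.

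*Dkk2*, which encodes a ligand of LRP5 and LRP6, had 10.2 and 2.61 CPM in *Myh11* ≥5 cells and 25.2 and 9.31 CPM in *Myh11* ≤1 cells, 2.46-fold and 3.57-fold higher. Among the members found in over 5% of the *Myh11* ≤1 cells of both libraries, it had the most uneven spread and also the lowest level. The measure of spread depends on the level, and the part of the level was not tested. The tenth of *Myh11* ≤1 cells with the most *Dkk2* UMIs held 81.1% of them in replicate 1 and all of them in replicate 2, where 7.33% of the cells had any, against 38.1% and 39.8% for *Dkk3*. *Dkk2* was 1.17-fold and 1.43-fold higher in *Fgf18* cells (29.4 and 13.3 CPM) and at 0.514 and 0.442 of the *Myh11* ≤1 level in *Sox9* cells (12.9 and 4.11 CPM). Its order over *Fgf18*, *Myh11* ≤1 and *Sox9* cells was the same in both libraries, although replicate 1 had 2.95-fold more *Dkk2* over all cells.

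*Dkk3* was nearly even over the *Myh11* ≤1, *Il1rn*, *Fgf18* and *Sox9* groups, from 81.0 to 88.2 CPM in replicate 1 and from 73.2 to 89.1 CPM in replicate 2. In *Myh11* ≥5 cells it had 44.3 and 25.6 CPM, so that *Myh11* ≤1 cells were 1.99-fold and 3.48-fold higher without overlap of the groups. Over all cells the libraries differed by 1.08-fold for *Dkk3*, far less than for *Sfrp1* or *Dkk2*.

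The receptor genes encode the Frizzled proteins that bind Wnt ligands. *Fzd1* had 24.2 and 22.4 CPM in *Myh11* ≥5 cells and 37.2 and 35.2 CPM in *Myh11* ≤1 cells (1.53-fold and 1.57-fold). *Fzd2* had 67.6 and 81.5 CPM against 77.3 and 93.8 CPM (1.14-fold and 1.15-fold), and its values overlapped between the groups. The share of cells with a *Fzd2* UMI was higher in *Myh11* ≥5 cells, at 72.5% and 74.3% against 69.3% and 66.9%, but at 3000 UMIs per cell it was lower, at 17.1% and 21.1% against 18.9% and 22.8%.

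*Axin2*, the β-catenin target, was at 0.310 and 0.348 CPM over all cells, from 37 and 43 UMIs. A UMI was found in 0.678% (0.467 to 0.951%) and 0.630% (0.456 to 0.848%) of cells, and free RNA alone would give 0.0377% in replicate 1. Its sums in *Myh11* ≥5 cells were 3 and 6 UMIs, so that its place among the 8 higher members rests on very few counts.

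Over the other groups, some members were higher and others lower. In *Il1rn* cells 5 members were higher than in *Myh11* ≤1 cells in both libraries (*Sfrp1*, *Sfrp2*, *Wnt5a*, *Fzd1* and *Axin2*) and 5 were lower (*Frzb*, *Dkk2*, *Dkk3*, *Wif1* and *Fzd2*), where 36.7% of all genes were higher and 27.5% lower. *Dkk2* was at 0.982 of the *Myh11* ≤1 level in replicate 1. In *Myh11* ≤1 cells of the *Il1rn* group alone it had 21.8 CPM there, against 21.5 CPM in those of no group. The count of lower members was 4 without endothelial cells and 4 without high-UMI cells. In *Fgf18* cells 2 members were higher (*Dkk2* and *Fzd2*), 6 were lower and 2 were opposite, against 22.4% of genes higher and 47.9% lower. The difference of *Fzd2* was 1.01-fold and 1.02-fold and changed sign without endothelial cells. In *Sox9* cells 3 members were higher (*Wif1*, *Wnt5a* and *Fzd2*), 3 were lower (*Dkk2*, *Dkk3* and *Axin2*) and 4 were opposite, against 29.0% and 34.0% of genes. The counts in *Fgf18* and *Sox9* cells were near the shares of all genes. Some differences were small, such as that of *Fzd2* in *Il1rn* cells (0.955 and 0.964 of the *Myh11* ≤1 level). *Axin2* rested on 14 and 3 UMIs in *Il1rn* cells and on 4 and 12 UMIs in *Sox9* cells.

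Joint detection was compared at like depth in *Myh11* ≤1 cells, by sorting the cells of each library into 10 bins of UMIs and comparing the cells with both genes with the number expected from the shares in each bin. No pair of members excluded each other by the rule used, a ratio of 0.5 or less in both libraries. Of 45 pairs, 43 had at least 5 expected cells in both libraries, 0 were low and 0 were high (1.5 or more). Of 133397 pairs of a member with any gene, 0.343% were low and 0.0960% high. In 8 pairs of members the ratio was below 1 in both libraries, in 22 it was above 1 in both, and 13 were opposite. For genes found in most cells the ratio can hardly leave 1, and the odds ratio (Mantel-Haenszel, over the same bins) was added after the data were seen. By this measure 0 pairs were at 0.5 or less and 0 at 2 or more in both libraries, against 1.05% and 0.987% of the pairs with any gene. With 2 UMIs for detection, 1 pair was low by odds ratio in both libraries, *Sfrp1* with *Wif1* (0.407 and 0.438, from 8 and 3 cells), where 1.02% of the pairs with any gene were low. In *Myh11* ≥5 cells 1 pair was low by odds ratio, *Dkk2* with *Wif1* (0 and 4 cells, where 6.33 and 7.79 were expected), and 2 were high, *Dkk3* with *Wnt5a* (2.68 and 2.62) and *Sfrp2* with *Wif1* (2.09 and 2.92), against 0.378% and 2.06% of the pairs with any gene. These pairs were chosen after their values were seen.

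The pair *Frzb* and *Dkk2*, picked from the 43 pairs after the values were seen, lay below expectation in both libraries. Its intervals count the cells of 1 culture as independent and are no test of the pair. Both genes were found in 259 and 143 *Myh11* ≤1 cells, 0.840 (0.741 to 0.949) and 0.795 (0.670 to 0.937) of the expected number, and the odds ratios were 0.690 and 0.632. Outside the endothelial gate the ratios were 0.865 and 0.824. With 2 UMIs for detection the pair shared 72 and 25 cells, and the ratios were 0.655 (0.513 to 0.825) and 0.503 (0.325 to 0.742). *Dkk2* and *Wif1* shared 24 and 10 cells, at ratios of 0.790 (0.506 to 1.18) and 0.506 (0.243 to 0.931). *Dkk2* and *Wnt5a* had ratios of 0.915 and 0.836, and *Sfrp1* and *Wif1* of 0.872 and 0.895, with intervals that included 1 except for *Dkk2* and *Wnt5a* in replicate 2 (0.698 to 0.993). Outside the endothelial gate 43 pairs were kept, and 0 were low and 0 high in both libraries, by ratio or odds ratio. Single values outside it are given here only for *Frzb* and *Dkk2*, and the part of endothelial cells in the other *Dkk2* pairs was not tested.

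Bases before the RefSeq start sites of *Frzb* and *Dkk2*, the pair just described, are shown for comparison. They are the 250 bases up to the start on GRCm38.p6, from chromosome 2, 80447397 to 80447646 on the minus strand, for *Frzb* and from chromosome 3, 132085042 to 132085291 on the plus strand, for *Dkk2*. For *Frzb* the GENCODE gene given above starts farther upstream, at 80447625, so that most of this window, with the marked match, lies inside that gene model.
Frzb: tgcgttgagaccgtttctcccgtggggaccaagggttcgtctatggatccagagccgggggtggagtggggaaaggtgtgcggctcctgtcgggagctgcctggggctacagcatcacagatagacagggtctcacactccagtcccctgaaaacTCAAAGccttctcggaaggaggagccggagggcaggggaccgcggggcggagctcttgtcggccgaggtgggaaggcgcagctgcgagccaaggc
Dkk2: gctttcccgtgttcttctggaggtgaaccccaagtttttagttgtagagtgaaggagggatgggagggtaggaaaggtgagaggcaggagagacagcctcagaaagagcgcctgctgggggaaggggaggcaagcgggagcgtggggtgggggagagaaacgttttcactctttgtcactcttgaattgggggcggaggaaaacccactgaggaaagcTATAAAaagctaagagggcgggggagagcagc
The capitals mark a match, on either strand, to the TCF/LEF core CTTTGA in *Frzb*, 95 to 90 bases before the start, and to the TATA box letters TATAAA in *Dkk2*, 32 to 27 bases before it. Of 32851 promoters in the table, 13.8% held CTTTGA and 12.4% held TATAAA in the same window. Neither window held the TEAD core CATTCC (12.6% of promoters), the AP-1 site TGANTCA (6.75%) or an SRF CArG box (1.47%), and the 2 windows that are shown had a GC content of 64.4% and 55.6% against a median of 52.4%. Of the 10 members, 6 had a promoter in the table. Among these, *Fzd1* also held CTTTGA (242 to 237 bases before the start) and TATAAA (202 to 197), and *Wif1* held TATAAA (232 to 227). A match is a description of letters and not of a bound site.

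*Sfrp1* and *Sfrp2* were found together more often than expected. Both were detected in 2112 and 1509 *Myh11* ≤1 cells, with ratios of 1.07 (1.03 to 1.12) and 1.11 (1.06 to 1.17) and odds ratios of 2.22 and 1.78. By the estimate, free RNA alone would give 26.9% and 5.87% of these cells an *Sfrp1* UMI and 24.7% and 40.7% an *Sfrp2* UMI. Detection at 1 UMI may thus partly reflect free RNA, although the estimate may be too high. At 10 UMIs for detection, the ratios were 1.31 (1.19 to 1.43) and 1.63 (1.36 to 1.94). Joint detection thus exceeded expectation in each library, although *Sfrp1* was 4.8-fold higher in replicate 1 and *Sfrp2* 2.04-fold higher in replicate 2. Most cells that passed 10 UMIs did so for 1 gene only. Both genes passed in 446 and 125 *Myh11* ≤1 cells, *Sfrp1* alone in 840 and 210 and *Sfrp2* alone in 560 and 1073.

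*Frzb* and *Wif1* had ratios of 1.5 (1.19 to 1.86) and 1.15 (0.966 to 1.35), and *Frzb* was 2.01-fold and *Wif1* 2.83-fold higher in replicate 2 over all cells. At 10 UMIs, 5 pairs had enough cells, and 1 of them was low in both libraries, where 0.528% of the pairs with any gene were low. *Sfrp1* and *Frzb* shared 10 and 4 cells, at ratios of 0.476 (0.228 to 0.875) and 0.414 (0.113 to 1.06). At 1 UMI the same pair had 0.986 and 0.961. *Sfrp2* and *Frzb* at 10 UMIs went in opposite directions, with 0.665 and 1.59.

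**Figure D3:**
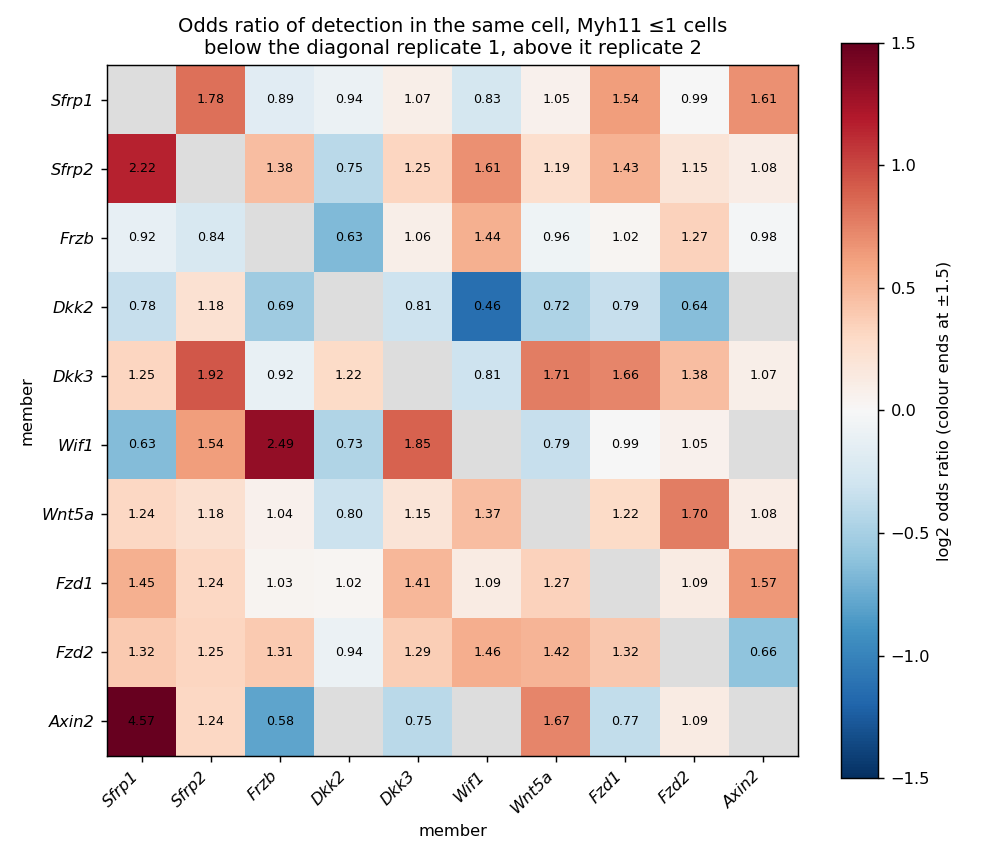
Odds ratio of detection in the same *Myh11* ≤1 cell for each pair of members, within bins of like depth, for replicate 1 below and replicate 2 above the diagonal (numbers are odds ratios, colour is their log2, grey pairs had under 5 expected cells). *Sfrp1* with *Sfrp2* was at 2.22 and 1.78 and *Frzb* with *Dkk2* at 0.690 and 0.632, and the value of *Axin2* with *Sfrp1* in replicate 1 rests on 26 cells.

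The members also differed in the phenotype genes they were found with. In *Myh11* ≤1 cells, *Sfrp1* went with *Il1rn* (odds ratios 4.29 and 4.20) and *Apoe*, the lipid carrier (2.05 and 2.03). Neither was particular to *Sfrp1*: *Sfrp2* went with *Il1rn* (3.03 and 2.13) and *Apoe* (1.75 and 1.31) too. *Wnt5a* (1.56 and 2.05) and *Fzd1* (1.32 and 1.58) also went with *Il1rn*. *Frzb* was detected less often with *Il1rn* (0.531 and 0.575) and with the chemokine *Ccl2* (0.666 and 0.633), as was *Wif1* with *Ccl2* (0.657 and 0.291, from 21 and 13 cells). *Dkk2* went with *Fgf18* (1.56 and 1.58) and less often with *Sox9* (0.653 and 0.527) and *Tnfrsf11b*, the decoy receptor osteoprotegerin (0.619 and 0.436). The *Myh11* ≤1 cells included 94 and 131 endothelial cells, and their part in these *Dkk2* values was not tested. *Wif1* was found with *Fgf18* in 49 and 28 cells, 0.760 and 0.541 of the expected number (odds ratios 0.593 and 0.456).

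In *Myh11* ≥5 cells, *Wnt5a* and *Wif1* lay on opposite sides of 1 in their joint detection with the fibroblast genes *Lum*, *Pdgfra* and *Dcn*. *Wnt5a* was found with *Lum*, a proteoglycan gene (odds ratios 3.93 and 4.74), with *Pdgfra*, a growth factor receptor gene (6.56 and 4.07), and with *Ly6a* (2.85 and 5.19). *Dkk3* went the same way, with 2.86 and 2.30 for *Lum* and 3.39 and 2.72 for *Pdgfra*. This was not particular to them. *Frzb*, *Dkk2*, *Fzd1* and *Fzd2* were also above 1 with *Lum*, *Pdgfra* and *Dcn* in both libraries. With *Pdgfra*, *Dkk2* had 3.70 and 1.89 and *Fzd1* 2.58 and 1.48. With the fibroblast marker *Cd34*, *Wnt5a* was nearer to 1 (1.31 and 1.03), and *Dkk3* differed in direction between the libraries (0.806 and 1.08). *Wif1* was found less often with *Lum* (0.549 and 0.518), *Pdgfra* (0.253 and 0.557) and *Dcn* (0.387 and 0.450). In *Myh11* ≤1 cells its direction differed between the libraries with *Lum* (1.41 and 0.753) and *Dcn* (2.13 and 0.350). With *Pdgfra* it was below 1 there too (0.891 and 0.732). The 5 fibroblast markers summed to 302 and 137 CPM in *Myh11* ≥5 cells and to 579 and 883 CPM in *Myh11* ≤1 cells, none at 0, and their part in the lower *Wnt5a* and *Dkk3* levels of *Myh11* ≥5 cells was not tested.

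**Figure D4:**
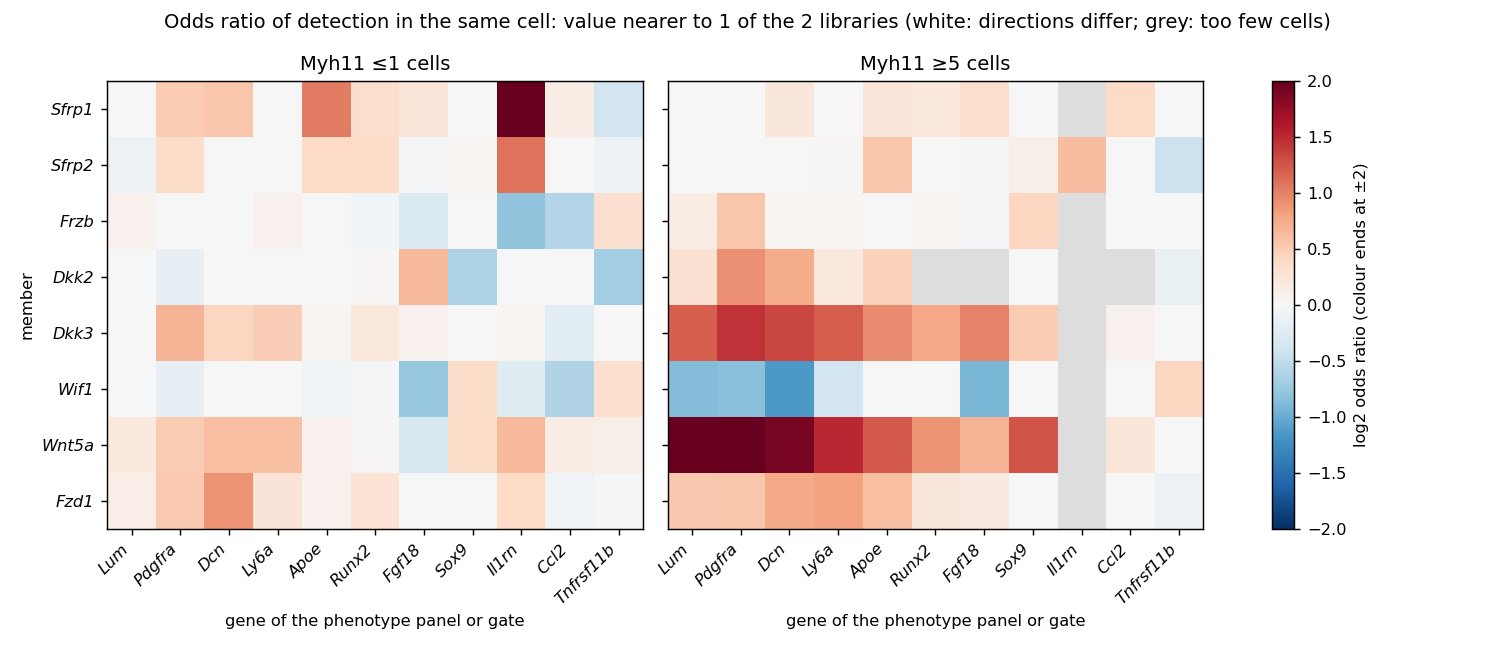
Log2 odds ratio of detection of 8 members (rows) with 11 genes of the phenotype panel and gates (columns, chosen after the values were seen) in *Myh11* ≤1 and *Myh11* ≥5 cells, as the value nearer to 1 of the 2 libraries, white where they went in opposite directions. In *Myh11* ≥5 cells *Frzb*, *Dkk2*, *Dkk3*, *Wnt5a* and *Fzd1* were above 1 and *Wif1* below 1 with *Lum*, *Pdgfra* and *Dcn*.

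The genes most like each secreted member were ranked by the lower of the 2 libraries' Pearson r of log counts per 10000 UMIs across *Myh11* ≤1 cells (4051 and 5500 cells, 10187 genes). The cells of a library share its preparation, and their depth varies. *Sfrp1* was most like *Igfbp4* (r of 0.58 and 0.48), *Svep1* (0.40 and 0.40) and *Lpl* (0.49 and 0.39). *Sfrp2* was most like the overlapping *Gm26771* (0.38 and 0.28), the chemokine *Cxcl12* (0.37 and 0.26) and *Abi3bp* (0.22 and 0.26). For *Frzb* the genes were *Pam*, *Serpinb6b* and *Fibin*, at 0.24 to 0.29, for *Dkk3* *Cdh11*, *Ogn* and *Col1a2*, at 0.25 to 0.31, and for *Wnt5a* *Timp3*, *Tmem45a* and *Nov*, at 0.17 to 0.22. For *Dkk2* the genes were *Cdh13* (0.17 and 0.20), *Flt1* (0.17 and 0.18), a receptor gene of endothelial cells, and *Col18a1* (0.14 and 0.19). These cells held 94 and 131 cells of the endothelial gate described next, and without them the values of *Dkk2* were 0.06 and 0.03 with *Cdh13*, 0.09 and 0.03 with *Flt1* and 0.01 and -0.02 with *Col18a1*, while those of the other members lay between 0.16 and 0.58. *Wif1* was found in under 5% of the cells and was not ranked.

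Endothelial cells, which the choice of members did not use, were cells with at least 2 *Pecam1* and 1 *Cdh5* UMIs (98 and 133 cells). Their 6 endothelial markers summed to 3464 and 3610 CPM, against 68.3 and 71.1 CPM in all *Myh11* ≤1 cells. Sums per library were compared with those of *Myh11* ≤1 cells outside this gate by edgeR's quasi-likelihood test with the library as a block. *Dkk2* rose and 5 members fell (*Sfrp2*, *Dkk3*, *Wnt5a*, *Fzd1* and *Fzd2*) of 9 tested. Of all 13210 genes, 16.1% rose and 16.8% fell. The members were chosen with their levels in *Myh11* ≤1 cells known, so that these counts of members are a description.

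*Dkk2* had 73.5 and 78.2 CPM in endothelial cells and 24.3 and 8.09 CPM in the other cells. The log2 fold change was 2.35 (SE 0.45, adjusted p = 0.00957, edgeR), and it was higher in both libraries. A *Dkk2* UMI was found in 41.8% (32.0 to 52.2%) and 39.1% (30.8 to 47.9%) of endothelial cells, where free RNA alone would give 1.42% and 0.364%. These cells held 127 of the 2789 *Dkk2* UMIs of replicate 1 and 130 of the 979 UMIs of replicate 2. Without the library block the adjusted p of *Dkk2* was 0.103 and that of *Sfrp2* 0.0924, so that both calls were lost.

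*Fzd2* had 13.9 and 15.6 CPM in endothelial cells against 78.4 and 95.2 CPM (log2 fold change -2.67, SE 0.13, adjusted p = 6.04e-05, edgeR). *Fzd1* fell by 1.99 on the log2 scale (SE 0.21, adjusted p = 0.000875, edgeR), from 37.6 and 35.7 to 12.7 and 7.21 CPM. *Wnt5a* fell by 3.0 (adjusted p = 0.00372), *Dkk3* by 2.81 (adjusted p = 0.0025) and *Sfrp2* by 2.91 (adjusted p = 0.0140). Endothelial cells had 45.7 and 88.4 CPM of *Sfrp2* against 344 and 476 CPM in the other cells, while free RNA alone would give 12.3 and 32.3 CPM. An *Sfrp2* UMI was found in 13.3% and 17.3% of endothelial cells, below the 18.8% and 31.4% that the free RNA estimate gives. The estimate may thus be too high. The tenth of endothelial cells with the most *Sfrp2* UMIs held 94.9% and 93.2% of them, with at most 29 in a cell in each library.

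*Frzb* and *Sfrp1* kept substantial levels in endothelial cells. *Frzb* had 57.3 and 94.4 CPM against 43.4 and 85.0 CPM (log2 fold change 0.14, SE 0.28, adjusted p = 0.746, edgeR), and 30.6% and 27.8% of the cells had a UMI against 3.15% and 5.15% from free RNA. *Sfrp1* had 283 and 161 CPM against 536 and 119 CPM (log2 fold change -0.33, SE 0.37, adjusted p = 0.539), lower in replicate 1 and higher in replicate 2. *Wif1* was found with 1 UMI in replicate 1 and in 0 of 133 cells in replicate 2, which, at 3 counts as the limit for a count of 0, allows a share of cells with a UMI of up to 2.26% (adjusted p = 0.0892). The median depth of these cells was 10625 UMIs. *Axin2* was too low to be tested. The smooth muscle markers summed to 2434 and 1416 CPM in the endothelial gate, and the part of smooth muscle RNA in these levels was not tested.

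Cycling cells, also outside the choice of members, were *Myh11* ≤1 cells with at least 2 UMIs of *Top2a*, a topoisomerase gene of dividing cells (1234 and 1229 cells), compared with those without *Top2a* (2281 and 3641 cells). By edgeR, 3 members rose (*Fzd1*, *Wnt5a* and *Fzd2*), 4 fell (*Dkk2*, *Wif1*, *Sfrp2* and *Dkk3*) and 3 did not pass, while 20.2% of 13940 genes rose and 24.6% fell. The differences were small. *Dkk2* fell from 29.4 and 10.4 CPM to 20.6 and 7.31 CPM, by 0.55 on the log2 scale (SE 0.07, adjusted p = 4.54e-05, edgeR).

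*Fzd1* rose from 34.6 and 33.8 to 41.4 and 39.2 CPM (log2 fold change 0.20, SE 0.05, adjusted p = 0.00524, edgeR). *Wnt5a* rose by 0.16 (adjusted p = 0.0331) and *Fzd2* by 0.14 (adjusted p = 0.0337). *Sfrp2* fell by 0.30 (adjusted p = 0.0137), from 383 and 487 to 280 and 460 CPM, with log2 ratios of -0.45 in replicate 1 and -0.08 in replicate 2. *Dkk3* fell by 0.19 (adjusted p = 0.0170), from 87.9 and 95.4 to 87.7 and 77.1 CPM, and in replicate 1 alone its log2 ratio was -0.0029. *Wif1* fell by 0.51 (adjusted p = 0.0464). *Sfrp1* (log2 fold change -0.08, adjusted p = 0.604), *Frzb* (0.02, adjusted p = 0.845) and *Axin2* (-0.54, adjusted p = 0.368) did not pass. All 7 calls were lost without the library block (adjusted p from 0.353 to 0.828), and with DESeq2 only that of *Dkk2* held. The median depth was 28422 and 20181 UMIs in cycling cells and 18779 and 14014 UMIs in the others, and its part in these differences was not tested.

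**Figure D5:**
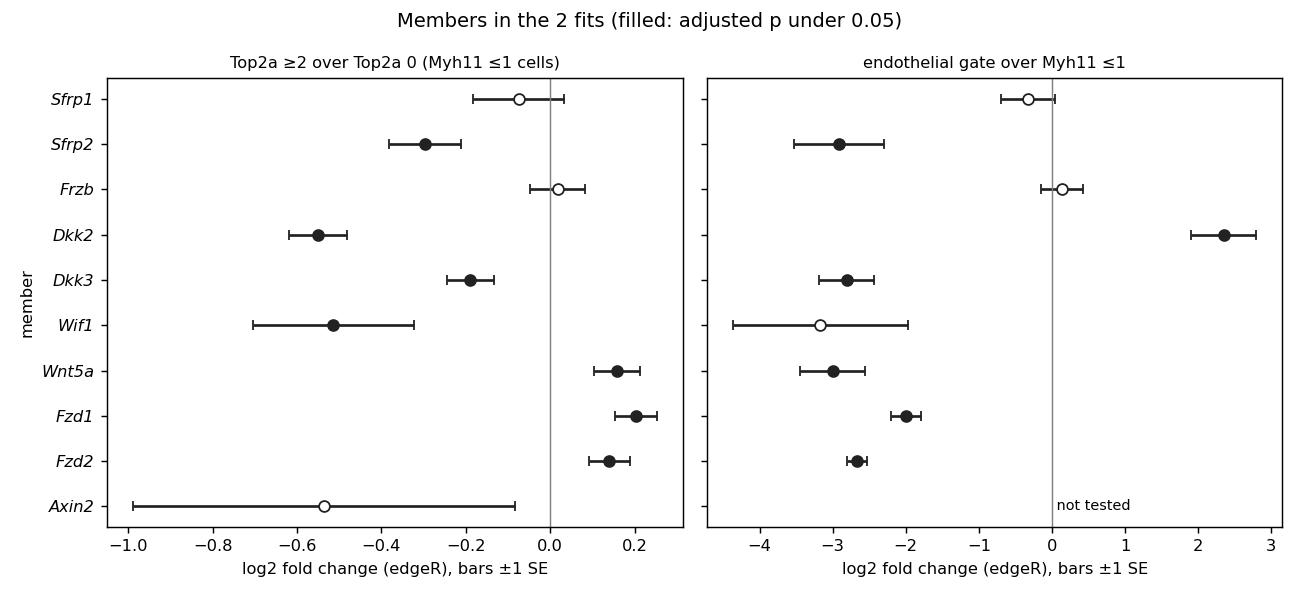
Log2 fold change (edgeR, bars ±1 SE, n = 2 libraries) of each member in cycling over non-cycling *Myh11* ≤1 cells and in endothelial over other *Myh11* ≤1 cells, filled where the adjusted p was under 0.05. *Dkk2* lay at -0.55 in cycling cells and at 2.35 in endothelial cells, and the 2 axes differ in scale.

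A list of 86 other Wnt pathway genes was tested in the same fits. Between *Myh11* ≤1 and *Myh11* ≥5 cells, 9 of 60 tested genes rose and 6 fell, where 6.51% of 13021 genes rose and 7.83% fell. The ligand gene *Wnt16* fell from 12.8 and 14.4 CPM in *Myh11* ≥5 cells to 0.298 and 0.272 CPM (log2 fold change -5.62, SE 0.59, adjusted p = 0.00947, edgeR). *Sost*, a secreted inhibitor of LRP5 and LRP6, fell by 3.09 (adjusted p = 0.00581) and the R-spondin receptor gene *Lgr6* by 1.81 (adjusted p = 0.026). *Wnt2* rose by 2.59 (adjusted p = 0.0204), *Ror2*, a receptor of Wnt5a, by 1.73 (adjusted p = 0.034), and *Rspo2*, a secreted enhancer of Wnt signaling, by 1.48 (adjusted p = 0.024). *Wif1* thus shared its direction with *Sost*, another secreted inhibitor, whereas *Sfrp1*, *Frzb*, *Dkk2* and *Dkk3* went the other way and *Sfrp2* differed between libraries. *Wnt5a* shared its direction with *Ror2* and *Wnt2*, but not with the ligand gene *Wnt16*. The directions of the members were known when they were chosen. All 15 calls were lost without the block.

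*Myh11* ≤1 cells positive for only 1 of *Il1rn*, *Fgf18* and *Sox9* were compared with *Myh11* ≤1 cells of none. The median depth was 18671 and 13922 UMIs in cells of none and 19133 and 14388 in *Il1rn* cells. It was 23362.5 and 16138 in *Fgf18* cells and 24927.5 and 18954 in *Sox9* cells, and its part in these differences was not tested. In *Il1rn* cells 8 of 61 listed genes rose and 2 fell (3.82% and 4.87% of 13471 genes), led by *Rspo1*, at 4.83 and 6.85 against 1.80 and 1.18 CPM (log2 fold change 1.72, adjusted p = 0.0238, edgeR). In *Fgf18* cells 9 rose and 2 fell (4.38% and 3.68%). The β-catenin target *Nkd1* rose there by 0.76 (adjusted p = 0.0031, edgeR), whereas the target *Ccnd1* fell by 0.31 (adjusted p = 0.0319). These *Fgf18* calls were not stable, since only 1 listed gene was called with DESeq2 and 3 with other gates. In *Sox9* cells 1 rose and 0 fell (1.24% and 3.24%), and this was *Ccnd1* (log2 fold change 0.40, adjusted p = 0.0149). These calls of *Il1rn*, *Fgf18* and *Sox9* cells were lost without the block too. In cycling cells 11 of 64 listed genes rose and 16 fell, near the shares of all genes (20.2% and 24.6%). In endothelial cells 10 of 62 rose and 23 fell (16.1% and 16.8% of all genes), and the receptor gene *Fzd6* had 61.9 and 75.7 CPM against 1.05 and 3.05 CPM (log2 fold change 5.10, adjusted p = 0.00012, edgeR). *Fzd6* thus stood opposite to *Fzd1* and *Fzd2* in endothelial cells.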

How the data were processed

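The authors aligned the reads of both libraries (10x Genomics single cell 3′ v3) with CellRanger, and the deposited values are raw UMI counts for every gene in every barcode, neither normalized nor filtered for cells. The submitters' processing notes name Cell Ranger 3.0.2 and mm10, and the file header of replicate 2 names 3.1.0. The counts summed to 127949633 and 132561822 UMIs. The 10 members, the gene lists and the groups of cells were chosen with earlier results of these data known.

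The quality limits of the study were kept: barcodes needed 300 genes and 3000 UMIs, and less than 20% of their UMIs could be mitochondrial. Doublets were kept, and an alternative left out the 348 and 527 cells with over 2 times the median UMIs. Free RNA was estimated from barcodes of 1 to 100 UMIs and the level of *Pecam1*, *Cdh5*, *Cldn5*, *Tie1* and *Emcn* in other cells. Counts were summed per library and class and tested with edgeR 4.0.16 (R 4.3.3; quasi-likelihood test, TMM, filterByExpr, Benjamini-Hochberg adjustment over all genes tested, threshold 0.05) with the library as a block. Dividing the log2 fold change by the root of the F statistic gave its SE. The sums of a library come from the same culture, which pairs them, and their deviations from the class means correlated at 0.674 to 0.717 (*Myh11* classes), 0.383 to 0.726 (*Il1rn*, *Fgf18* and *Sox9* classes), 0.659 to 0.773 (cycling) and 0.266 to 0.655 (endothelial). P-values rest on the spread left after the block, that is on how alike the differences between classes were in these 2 libraries only. DESeq2 1.42.0 was an alternative. The scripts were tested on simulated data. Shares at 3000 UMIs are expected values from the hypergeometric distribution.

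The genes named are the members, the 3 genes most like each secreted member, a panel of phenotype genes, and from the pathway list some of the 5 called genes that moved most in either direction per fit. Gene positions are from GENCODE M21 (GRCm38), which held 30934 of the 31053 gene identifiers, and sequences are from RefSeq (GRCm38.p6).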

Additional observations from a re-analysis of the deposited data

How the results depend on the processing

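Between the *Myh11* groups, the 8 higher members were 7 to 9 under other cell filters, other gates (7 with gates on cells thinned to 3000 UMIs) or in single libraries. Leaving out either replicate gave 1 to 2 lower members there, 2 to 4 higher in *Fgf18* cells, and 5 to 5 higher and 5 to 5 lower in *Sox9* cells. The count of 2 higher members in *Fgf18* cells became 1 with stricter gates and 1 without endothelial cells, since the log2 ratio of *Fzd2* became -0.0128 and -0.00189. By the ratio, pairs low in both libraries were 0, and 1 at 10 UMIs for detection. By the odds ratio they were 0, but 1 at 2 UMIs for detection, and 1 low and 2 high in *Myh11* ≥5 cells. The odds ratio, the 10 UMIs, the *Myh11* ≥5 cells and the neighbours without endothelial cells were added after seeing the data.

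Without the replicate block the genes called went from 1868 to 2 (*Myh11*), from 1171 to 0 (*Il1rn*), from 1086 to 1 (*Fgf18*), from 603 to 0 (*Sox9*), from 6247 to 754 (cycling) and from 4356 to 2522 (endothelial). Pathway calls went from 15, 10, 11, 1 and 27 to 0, 0, 0, 0 and 0, and from 33 to 25 in endothelial cells. With DESeq2 the *Fgf18*, *Sox9* and cycling fits called 624, 398 and 3668 genes, and 1 and 8 pathway genes in *Fgf18* and cycling cells. Without a filter the *Il1rn*, *Fgf18* and *Sox9* fits called 1990, 1749 and 1270 genes, and 17 and 7 pathway genes in *Il1rn* and *Sox9* cells. Other gates gave 2981 genes for *Myh11*, and 3 and 2 pathway genes for *Fgf18* and *Sox9*. The causes were not tested. No direction of a called gene turned among 448 values with a test, and 81 lost their call, of which 35 under settings other than the block. *Axin2*, with 37 and 43 UMIs in all, is limited by depth.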
